A study of Mus with 21 samples.

Results

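The Wnt ligands, the Frizzled receptors and the secreted proteins that hold them back were followed in mouse skin wounds on Day 4. The genes were taken by name from the 18806 gene symbols of the count files. Every symbol of the Wnt, Fzd, Sfrp and Dkk families was included, together with Frzb, Wif1, Axin2, Lef1, Lgr5, Notum, Rspo1 and Rspo3, which gave 43 genes. They comprise 18 Wnt ligands, 10 Frizzled receptors, 6 antagonists that bind Wnt proteins, a group of 4 with the Dkk genes and Notum, a group of 3 with the R-spondins Rspo1 and Rspo3 and the R-spondin receptor Lgr5, and 2 transcriptional readouts, Axin2 and Lef1.

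The wounds were made in 8-week-old female wild-type C57BL/6 mice by punching through the full thickness of the back skin on each side, and a splint was placed around each wound. The control wounds received no hydrogel. The other 6 groups received a GelMA hydrogel, a light-cured gelatin gel, of pH 6.4, 7.4 or 8.4 that carried acidic fibroblast growth factor (aFGF, or FGF1) or basic fibroblast growth factor (bFGF, or FGF2), and a group such as 6.4/aFGF is named first by its pH. Each group had 3 libraries, which the labels call biological replicates, so 21 libraries were compared. Each mouse carried 2 wounds, and the sample titles do not say which mouse gave each library. Libraries of a group may thus not all be from separate mice, while the SDs and tests below treat them as independent. Replicates 1 and 2 of 7.4/bFGF were the most alike, with a mean chi-square per gene of 17.2. Other pairs within a group had 70.7 or more. The highest values, 368 and 346, were those of control replicate 2 against control replicates 1 and 3, which had 70.9 between them. The reasons were not tested. No group had a hydrogel without growth factor, so the hydrogel and the growth factor cannot be told apart in a comparison with the control, and the labels name no batch.

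Wnt proteins are secreted lipid-modified ligands that bind Frizzled receptors. In the canonical branch, binding together with Lrp5 or Lrp6 spares beta-catenin from degradation, and beta-catenin then works with Lef1 and its relatives to switch on targets such as Axin2. Other Wnt proteins, of which Wnt5a is the best known, act mainly through Ror and other receptors on cell shape and movement. Sfrp proteins, Frzb and Wif1 bind Wnt proteins outside the cell, Dkk proteins act on the Lrp co-receptors, Notum removes the lipid from Wnt proteins, and R-spondins bind Lgr receptors and keep Frizzled receptors at the cell surface. In skin the pathway is known for its part in hair follicle formation and cycling and in the dermis.

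Total counts were 34362558 to 37817833 per library, and errors are SDs over libraries. The tissue label was checked against marker lists. The 16 keratinocyte genes averaged 6.58 to 8.32 on the log2 scale of CPM (counts scaled to library size) and the 16 fibroblast genes 9.34 to 10.3 log2 CPM over the 21 libraries, so both main cell types of skin were present in every library. Genes of tissues that the label does not name were high in 3 libraries. The 18 cartilage and bone genes averaged 3.42 log2 CPM in 7.4/aFGF replicate 3 against at most -1.62 elsewhere, the 18 liver genes 4.04 in 8.4/aFGF replicate 2 against at most 1.62, and the 18 ovary and oviduct genes 4.59 in 8.4/bFGF replicate 2 against at most -0.58. Values below include these 3 libraries unless stated, and the calls made without them are given with the other alternatives. In bulk tissue, fewer cells of a type and less RNA per cell cannot be told apart.

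Secreted antagonists were the most abundant products of the whole set, and receptors were more abundant than ligands. Levels of different genes are compared as FPKM, which corrects for gene length. Of the 43 genes, 27 had a mean of at least 1 FPKM and 7 of at least 10 FPKM. The highest was Sfrp2, a secreted Frizzled-related protein of dermal fibroblasts, at 98.9 ± 61.3 FPKM (SD, n = 21). The summed level of the 6 Wnt-binding antagonists was 149 ± 68.4 FPKM (SD, n = 21), that of the 10 Frizzled receptors 62.6 ± 11.4 FPKM and that of the 18 Wnt ligands 27.9 ± 4.93 FPKM. The antagonist sum exceeded the ligand sum in 21 of 21 libraries, by 1.73 to 9.3 times (median 5.26), and Sfrp2 alone made up 31.4% to 80.5% of the antagonist sum.

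Among the ligands, Wnt4 had the highest mean level, at 4.09 ± 0.859 FPKM (SD, n = 21), and was followed by Wnt2 (3.86 FPKM), Wnt11 (3.46 FPKM), Wnt5a (3.45 FPKM), Wnt10a (3.16 FPKM) and Wnt9a (2.9 FPKM). Neighbours in this order differed by less than their SDs over libraries, which were 0.859 to 1.82 FPKM for these 6 genes. No ligand reached 10 FPKM. Wnt8b, with at most 8 counts in a library, was the only ligand that failed the filter on low counts. Wnt7a, Wnt9b and Wnt1 passed the filter with means of 0.059, 0.051 and 0.0396 FPKM, and each had 0 counts in at least 1 library, which does not show that the transcript was absent there.

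All 10 receptor genes were measured. Fzd1 led at 20.4 ± 3.94 FPKM (SD, n = 21), before Fzd4 (12.3 FPKM), Fzd2 (11.8 FPKM), Fzd7 (7.28 FPKM), Fzd6 (4.72 FPKM) and Fzd10 (1.88 FPKM). Fzd3 was lowest at 0.339 FPKM. The receptors also held the steadiest genes of the set. For Fzd1 and Fzd5 the highest library was 1.94 times the lowest on the CPM scale, for Fzd6 2.06 times, and 7 of the 38 genes with a count in every library stayed within 3 times, of which 6 were receptors and the other was Wnt4. The other 4 receptors varied more, Fzd7 by 3.14 times, Fzd10 by 5.24 times, Fzd2 by 5.94 times and Fzd9 by 57.7 times. Fzd9 had 0.0858 CPM, from only 3 counts, in 7.4/bFGF replicate 3. It had 4.95 CPM in 7.4/aFGF replicate 3, the library with the cartilage and bone genes.

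Of the antagonists, Sfrp4 (30.0 ± 13.8 FPKM), Sfrp1 (11.8 ± 4.29 FPKM) and Sfrp5 (7.18 ± 2.78 FPKM, each SD, n = 21) followed Sfrp2, while Wif1 and Frzb averaged 1.14 and 0.453 FPKM. Dkk3, a divergent member of its family that is not a typical Lrp inhibitor, was the fourth gene of the whole set at 17.6 ± 9.67 FPKM (SD, n = 21). Dkk2 averaged 1.37 FPKM and Notum 0.147 FPKM. Dkk1, the classical Lrp inhibitor, had at most 6 counts in a library, 0 counts in 15 libraries, and failed the filter. Rspo1, Rspo3 and Lgr5 averaged 1.88, 1.44 and 0.708 FPKM. The feedback inhibitor Axin2, a direct target of beta-catenin, averaged 1.59 ± 0.767 FPKM and Lef1, its DNA-binding partner, 0.197 ± 0.239 FPKM (each SD, n = 21).

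**Figure D1:**
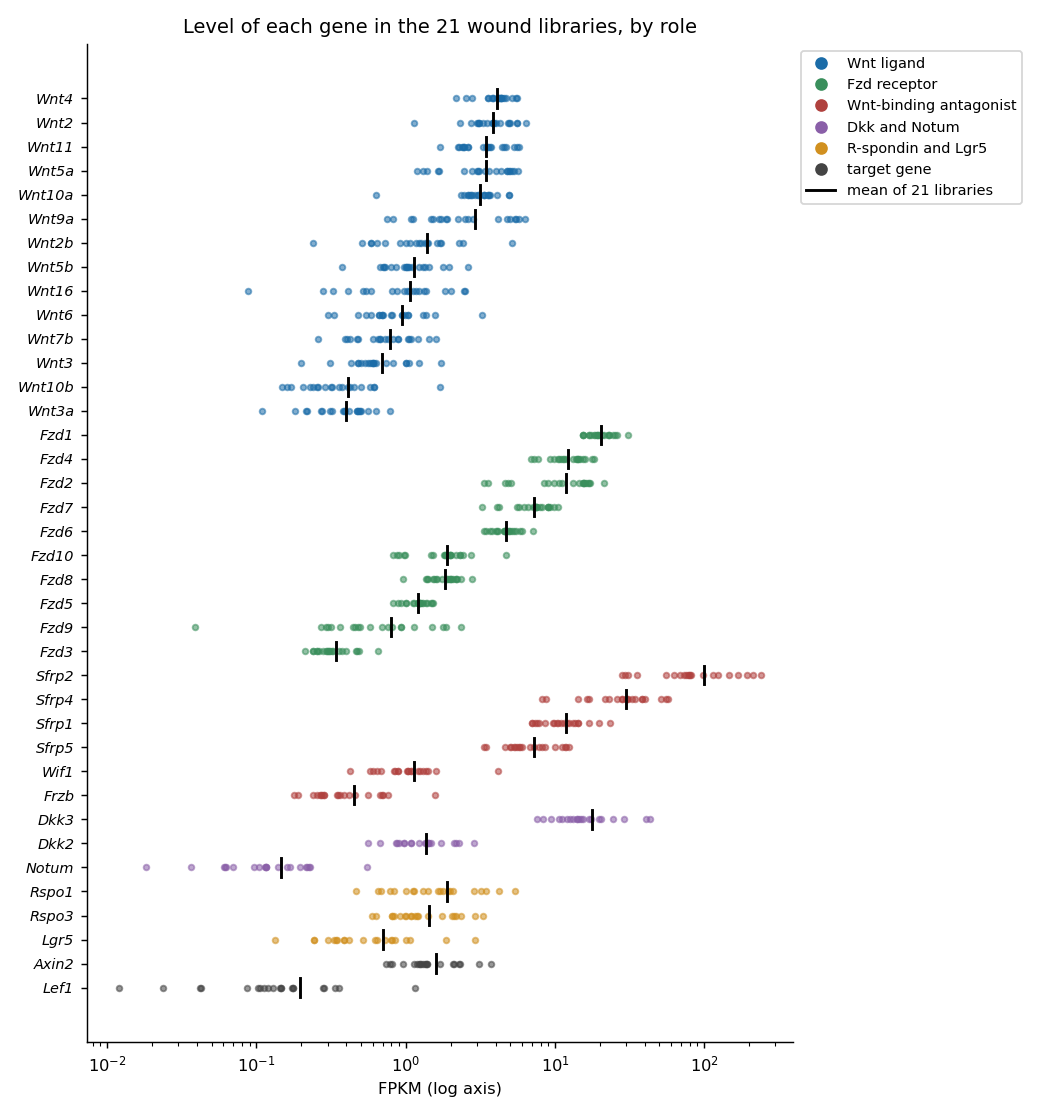
Level of the 38 genes with a count in every library, as FPKM on a log axis, with a point for each of the 21 libraries, a black bar at the mean and a colour for each role. Sfrp2 (mean 98.9 FPKM) lies furthest right, and no ligand mean exceeds 4.09 FPKM. Lef1 spreads most, 102 times from the lowest library, which had only 2 counts, to the highest on the CPM scale.

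Some genes varied widely within a group. Sfrp2 was 469, 404 and 57.3 CPM in the 3 libraries of 6.4/bFGF and 323, 75.4 and 274 CPM in the controls. The first of these 6.4/bFGF libraries was the highest of all 21 for 7 genes (Dkk3, Fzd1, Fzd2, Fzd6, Sfrp1, Sfrp2 and Wnt16), and the third was the lowest for 7 (Axin2, Fzd3, Fzd4, Fzd5, Fzd6, Sfrp2 and Sfrp4). The fibroblast genes averaged 10.3 log2 CPM in the first and 9.7 log2 CPM in the third, and the part of this in the differences was not tested. Another library, 7.4/bFGF replicate 3, was the lowest for 8 genes (Frzb, Fzd9, Lgr5, Wnt10a, Wnt3, Wnt3a, Wnt4 and Wnt6). It also had the lowest means of the keratinocyte genes (6.58 log2 CPM) and of 16 skeletal muscle genes (3.47 log2 CPM). The library with the ovary and oviduct genes was the highest for Fzd3, Fzd8, Notum, Wnt2b, Wnt6 and Wnt7a, the one with the cartilage and bone genes for Frzb, Fzd9, Wif1 and Wnt11, and the one with the liver genes for Wnt10a. Lef1 was 5.35 CPM in 7.4/aFGF replicate 1 and at most 1.61 CPM in any other library.

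The comparison of the growth factors gave the only calls of the set in the main edgeR fits. It set 9 libraries against 9, whereas the comparison with the control set 18 against 3. With aFGF, Wnt5a and Rspo3 were 2.0 and 2.08 times lower and Wnt7b 1.74 times higher than with bFGF. In edgeR's quasi-likelihood test over all pH values, 3 of the 41 genes tested passed both thresholds (0.05 for the adjusted p-value, 0.58 for the size of the log2 fold change) and were called, and the background was 3.2% of the 15811 genes tested. At an unadjusted p below 0.05 stood 18 of 41, or 43.9%, against 28.0% of all genes. Of these, 6 had a higher and 12 a lower estimate with aFGF, and the median log2 fold change of the 41 genes was -0.20 against -0.00161 for all genes. By role, 11 of the 17 ligands, 1 of the 10 receptors, 1 of the 6 Wnt-binding antagonists, 1 of the 3 genes with Dkk and Notum, 2 of the 3 with the R-spondins and both readouts had an unadjusted p under 0.05.

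Wnt5a, the main non-canonical ligand, was 49.4, 35.3 and 14.0 CPM in 6.4/aFGF, 12.0, 16.0 and 29.1 CPM in 7.4/aFGF and 17.8, 13.1 and 24.0 CPM in 8.4/aFGF. It was 49.1, 50.8 and 40.3 CPM in 6.4/bFGF, 40.9, 45.7 and 57.5 CPM in 7.4/bFGF and 45.4, 46.9 and 32.7 CPM in 8.4/bFGF, and 29.3, 32.0 and 25.8 CPM in the controls. The 9 bFGF libraries lay above the highest control, and 7 of the 9 aFGF libraries lay below it. Both growth factors overlapped only through the first 2 libraries of 6.4/aFGF. The means were 23.4 ± 12.6 CPM with aFGF and 45.5 ± 7.07 CPM with bFGF (SD, n = 9 each). On the log2 scale the level with aFGF was lower by 1.0 (SE 0.212, edgeR adjusted p = 0.0115). The call was kept under all 32 alternatives, with adjusted p-values up to 0.0270.

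Rspo3, an R-spondin of stromal and endothelial cells, was 2.27, 3.32 and 2.05 CPM in 6.4/aFGF, 2.44, 2.58 and 1.51 CPM in 7.4/aFGF and 2.83, 1.99 and 1.92 CPM in 8.4/aFGF. With bFGF it was 4.75, 7.23 and 2.44 CPM at pH 6.4, 5.01, 5.49 and 2.92 CPM at pH 7.4 and 7.67, 4.52 and 4.13 CPM at pH 8.4, and the controls had 1.37, 3.05 and 2.70 CPM. In 7 of the 9 bFGF libraries the level exceeded that of all 9 aFGF libraries, and the aFGF range covered the controls but for the lowest. The log2 fold change was -1.06 (SE 0.234, edgeR adjusted p = 0.0132), from means of 2.32 ± 0.541 and 4.91 ± 1.74 CPM (SD, n = 9 each). This call too was kept under all 32 alternatives, with adjusted p-values up to 0.0473.

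Wnt7b, a ligand of epithelial cells including keratinocytes, went the other way. It was 4.76, 1.78 and 3.41 CPM in 6.4/aFGF, 4.03, 3.59 and 2.97 CPM in 7.4/aFGF and 4.92, 5.49 and 4.73 CPM in 8.4/aFGF, against 2.89, 2.20 and 2.14 CPM in 6.4/bFGF, 1.81, 1.12 and 3.00 CPM in 7.4/bFGF and 1.69, 2.40 and 3.13 CPM in 8.4/bFGF. The controls had 6.78, 4.17 and 5.99 CPM, so all bFGF libraries lay below all controls, and the 8.4/aFGF libraries lay within the control range. The log2 fold change of aFGF over bFGF was 0.80 (SE 0.215, edgeR adjusted p = 0.0284), from 3.97 ± 1.15 and 2.26 ± 0.668 CPM (SD, n = 9 each). The call was lost in 8 of the 21 fits that left out a library, namely 6.4/aFGF replicate 1 or 3, 6.4/bFGF replicate 2, 7.4/aFGF replicate 1, 7.4/bFGF replicate 1 or 2, or 8.4/aFGF replicate 1 or 2 (adjusted p up to 0.0583), and in the fit without the 3 libraries with genes of other tissues (adjusted p = 0.0706).

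**Figure D2:**
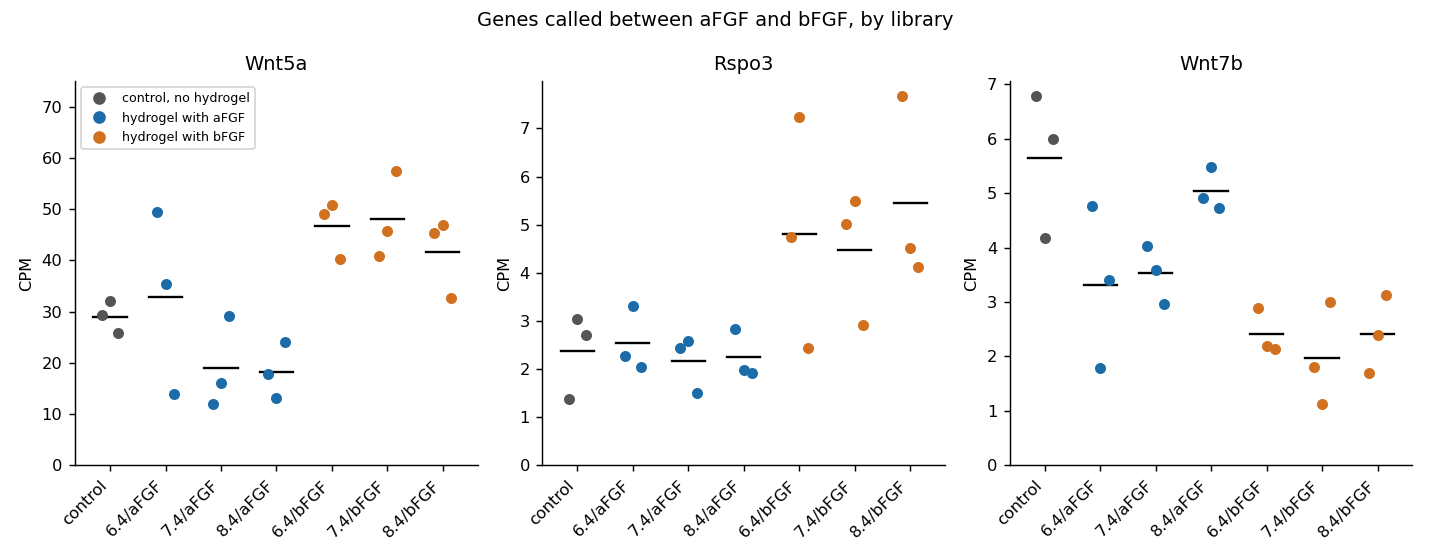
CPM of Wnt5a, Rspo3 and Wnt7b in each library (points, 3 in each of the 7 groups) with the group means (bars). The Wnt5a points with bFGF run from 32.7 to 57.5 CPM, above the controls, the Rspo3 points with aFGF stay at or below 3.32 CPM, and the Wnt7b points with bFGF stay at or below 3.13 CPM.

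The other ligands with an unadjusted p under 0.05 split by direction. Lower estimates with aFGF were found for Wnt16 (log2 fold change -1.05), Wnt2b (-1.05), Wnt6 (-0.70), Wnt5b (-0.48) and Wnt7a (-2.84). Higher estimates were found for Wnt3 (0.66), Wnt10a (0.57), Wnt11 (0.50) and Wnt4 (0.32). None of the 9 passed the adjusted threshold in edgeR, with adjusted p-values from 0.0722 to 0.170. Wnt3, Wnt10a and Wnt4 had their lowest values of all 21 libraries in 7.4/bFGF replicate 3 (0.372, 1.29 and 8.72 CPM). That library also had the lowest mean of the keratinocyte genes (6.58 log2 CPM), and its part in these estimates was not tested. Wnt16 ranged from 0.280 to 3.61 CPM with aFGF and from 1.06 to 7.47 CPM with bFGF, and 7 of the 9 bFGF libraries exceeded all aFGF libraries. Wnt2b ranged from 0.850 to 5.95 CPM with aFGF and from 2.03 to 16.6 CPM with bFGF. The value of 16.6 CPM came from the library with the ovary and oviduct genes, and the next highest was 8.53 CPM. Wnt7a rested on few reads, with 0 counts in the 3 libraries of 7.4/aFGF and at most 45 counts in any library, a maximum that again came from the library with the ovary and oviduct genes. DESeq2 called both Wnt2b and Wnt7a.

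Among the receptors only Fzd2, which can bind Wnt5a, had an unadjusted p under 0.05, with a log2 fold change of -0.88 (SE 0.291, edgeR adjusted p = 0.0605). It was 31.5, 35.3 and 17.2 CPM in 6.4/aFGF, 12.6, 17.3 and 52.6 CPM in 7.4/aFGF and 14.0, 19.0 and 58.6 CPM in 8.4/aFGF, 34.1 to 74.8 CPM with bFGF (median 54.7) and 54.2, 40.9 and 58.6 CPM in the controls. With aFGF, 7 of the 9 libraries were below every control. The third library of 7.4/aFGF was within the control range, and that of 8.4/aFGF was level with the highest control after rounding. Leaving out either of these 2 libraries brought Fzd2 past both thresholds, and so did leaving out the 3 libraries with genes of other tissues (log2 fold change -1.05, adjusted p = 0.0399). With all 21 libraries, Fzd2 was called by DESeq2 with default settings (adjusted p = 0.0191) and without Cook's cutoff and filtering (0.0219). Limma on the FPKM values also called it in each setting (adjusted p = 0.0307 to 0.0444). In the other 24 of its 32 alternatives Fzd2 was not called, and the edgeR adjusted p reached 0.119 when 1 library was left out. The log2 fold changes of the other 9 receptors lay between -0.29 (Fzd7) and 0.08 (Fzd9). The summed level of all 10 receptors was 54.5 ± 6.94 FPKM with aFGF and 67.8 ± 9.85 FPKM with bFGF (SD, n = 9 each), against 71.4 ± 13.8 FPKM in the controls (SD, n = 3).

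Of the antagonists, Sfrp1 had a log2 fold change of -0.42 (SE 0.191, edgeR adjusted p = 0.159), with 44.5 ± 11.3 CPM in the aFGF and 59.8 ± 20.1 CPM in the bFGF libraries (SD, n = 9 each). The most abundant antagonist, Sfrp2, had 151 ± 66.7 and 233 ± 152 CPM, and an adjusted p of 0.384. Dkk3 was 49.1 ± 23.4 CPM with aFGF and 82.4 ± 39.3 CPM with bFGF (SD, n = 9 each), and its log2 fold change of -0.74 (SE 0.246) missed the threshold in edgeR with an adjusted p of 0.0619. It was called by DESeq2 and when 6.4/aFGF replicate 2, 6.4/bFGF replicate 3 or 8.4/bFGF replicate 1 was left out (adjusted p as low as 0.0280). In the other 27 of its 32 alternatives Dkk3 was not called, and the edgeR adjusted p reached 0.142 when 1 library was left out. The 9 bFGF libraries of Dkk3 all lay above the aFGF median of 41.9 CPM, and 6.4/aFGF replicate 2, at 104 CPM, was the only aFGF library above the bFGF median of 65.6 CPM.

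Lgr5 had 1.80 ± 0.778 CPM with aFGF and 3.07 ± 1.26 CPM with bFGF, and Axin2 had 5.72 ± 1.06 and 8.05 ± 2.56 CPM (SD, n = 9 each). Their log2 fold changes were -0.76 (edgeR adjusted p = 0.141) and -0.46 (adjusted p = 0.104). Lef1 had a positive estimate of 1.17 (adjusted p = 0.164), but its aFGF median of 0.666 CPM was close to the bFGF median of 0.528 CPM, and the library at 5.35 CPM was an aFGF library. The estimates of these 2 readouts of beta-catenin thus differed in sign, and neither was called.

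**Figure D3:**
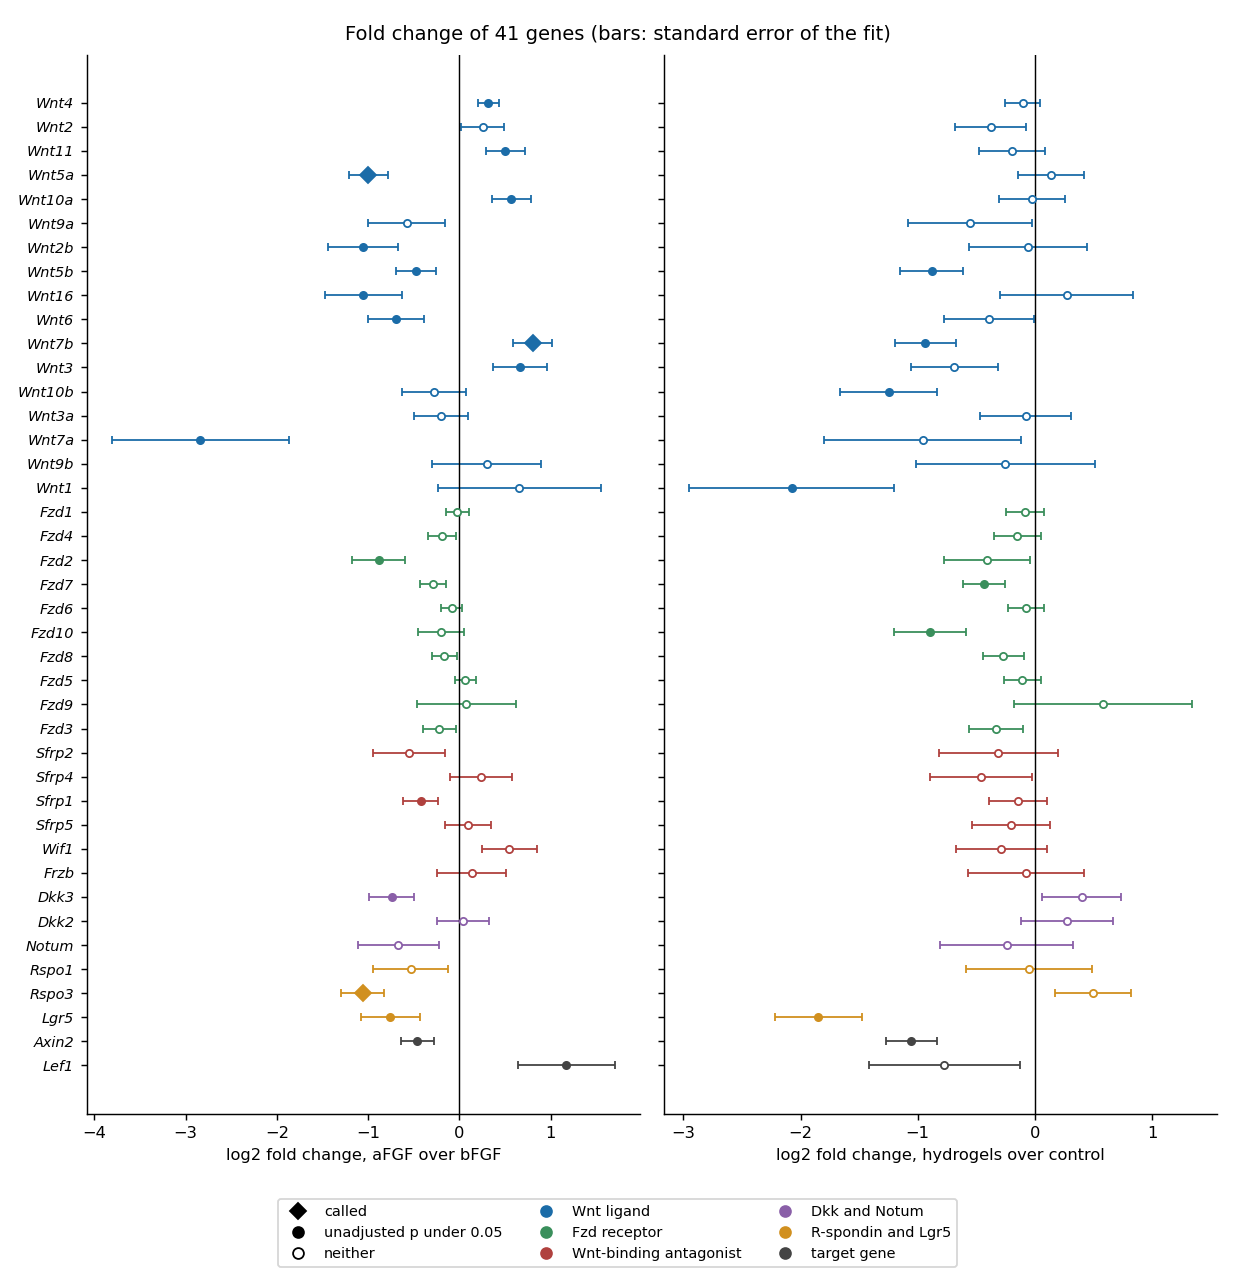
Log2 fold change of the 41 tested genes with its standard error, for aFGF over bFGF (left) and hydrogels over control (right), ordered by role and mean FPKM. Diamonds mark called genes, filled circles an unadjusted p under 0.05 and open circles neither. Only Wnt5a, Rspo3 and Wnt7b carry diamonds, all on the left, and 35 of 41 estimates on the right lie below 0.

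Other components of the pathway were described with a list of 60 genes, of which 58 were tested between the growth factors. In edgeR, 2 were called higher and 4 lower with aFGF, against 1.46% and 1.74% of all genes, and 7 and 17 had an unadjusted p under 0.05, against 14.7% and 13.4%. Ror1, a receptor for Wnt5a, had a log2 fold change of 0.66 (SE 0.144, adjusted p = 0.0127), and the kinase Wnk1 one of 0.59 (SE 0.113, adjusted p = 0.00729). Lower with aFGF were Nkd1 (by 1.0, adjusted p = 0.019), a feedback inhibitor of Dishevelled, Dact1 (-0.86, adjusted p = 0.0169) and Dact3 (-0.77, adjusted p = 0.0341), which also bind Dishevelled, and Pygo1 (-0.81, adjusted p = 0.0215), a co-activator of beta-catenin. Ror2, the other Ror receptor, had an adjusted p of 0.0243 but a log2 fold change of -0.58, just short of the threshold on fold.

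Marker lists of other cell types were compared in the same way, where 28.0% of all genes had an unadjusted p under 0.05. Of the 16 fibroblast genes, 14 had a lower estimate with aFGF, 7 of them at an unadjusted p under 0.05 (43.8%), and Pdgfrb was called (log2 fold change -0.79). Their mean ranged from 9.34 to 9.96 log2 CPM with aFGF and from 9.63 to 10.3 log2 CPM with bFGF. Of the 17 liver genes tested, 8 were called higher with aFGF, against 1.46% of all genes, and the liver list averaged -0.77 to 4.04 log2 CPM with aFGF against -1.59 to 0.59 log2 CPM with bFGF. Of the 16 keratinocyte genes, 15 had a higher estimate with aFGF, none was called and 2 had an unadjusted p under 0.05 (12.5%). The part of these cell types in the differences of the Wnt genes was not tested. None of the 41 genes separated all aFGF from all bFGF libraries, which 0.607% of all genes did.

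The difference between aFGF and bFGF was then examined at each pH, with the 6 libraries of that pH alone. No gene of the set was called by edgeR at pH 6.4 (38 tested, 0.0% of all genes called), pH 7.4 (39 tested, 0.0%) or pH 8.4 (39 tested, 0.00665%). At pH 6.4, 3 genes (7.89%) stood at an unadjusted p below 0.05, all lower with aFGF, against 8.16% of all genes (5.1% higher and 3.05% lower). At pH 7.4, 4 did (10.3%), 1 higher and 3 lower, against 13.0% of all genes (6.57% higher and 6.46% lower). At pH 8.4, 8 did (20.5%), 1 higher and 7 lower, against 21.1% of all genes (11.7% higher and 9.42% lower). DESeq2 called 1 gene at pH 6.4 (Fzd2), 1 at pH 7.4 (Wnt5a) and 7 at pH 8.4 (Axin2, Dkk3, Lgr5, Rspo3, Sfrp1, Wnt5a and Wnt7b), where its background was 0.661%, 1.5% and 5.27%. Limma on the FPKM values called 0 at each pH.

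Wnt5a had log2 fold changes of -0.50 (SE 0.407) at pH 6.4, -1.34 (SE 0.333) at pH 7.4 and -1.17 (SE 0.245) at pH 8.4. At pH 7.4 and 8.4 its highest aFGF library (29.1 and 24.0 CPM) was below the lowest bFGF library (40.9 and 32.7 CPM), whereas at pH 6.4 the groups overlapped. Such separation of the 3 aFGF from the 3 bFGF libraries was found for 4 of 38 genes of the set at pH 6.4 (15.0% of all genes), 6 of 39 at pH 7.4 (20.8%) and 11 of 39 at pH 8.4 (27.5%). Rspo3 gave -0.90, -1.03 and -1.25, and Wnt7b 0.47, 0.84 and 1.09. Fzd2 gave -1.11 (SE 0.289) at pH 6.4, where 17.2 to 35.3 CPM faced 48.3 to 74.8 CPM, then -0.86 and -0.69. Also at pH 6.4, Fzd7 (-0.68) and the ligand Wnt9a (-1.18) had an unadjusted p under 0.05, and at pH 7.4 Fzd4 (-0.50) and Lef1 (2.72) did. Without 7.4/aFGF replicate 1, the library at 5.35 CPM, the estimate of Lef1 was 1.26, and it lay between 1.26 and 3.94 when any 1 library was left out.

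At pH 8.4 the estimates of Axin2, Lgr5, Sfrp1 and Dkk3 were all lower with aFGF. Axin2 was 4.44, 6.12 and 6.86 CPM in 8.4/aFGF and 11.1, 9.33 and 10.4 CPM in 8.4/bFGF, a log2 fold change of -0.80 (SE 0.202, edgeR adjusted p = 0.126). Lgr5 was 1.70, 1.86 and 1.13 CPM against 3.67, 4.50 and 2.85 CPM (-1.21, adjusted p = 0.136), and Sfrp1 34.2, 39.2 and 31.5 CPM against 60.0, 53.0 and 74.0 CPM (-0.81, adjusted p = 0.101). These 3 were among the 11 genes of the set (28.2%) whose groups did not overlap at this pH, a share close to the 27.5% of all genes. Dkk3 (-1.14) and Wnt6 (-1.57) also had an unadjusted p under 0.05. Wnt6 was 6.61 CPM in 8.4/bFGF replicate 2, the library with the ovary and oviduct genes, and 2.08 and 1.47 CPM in the other libraries of that group.

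**Figure D4:**
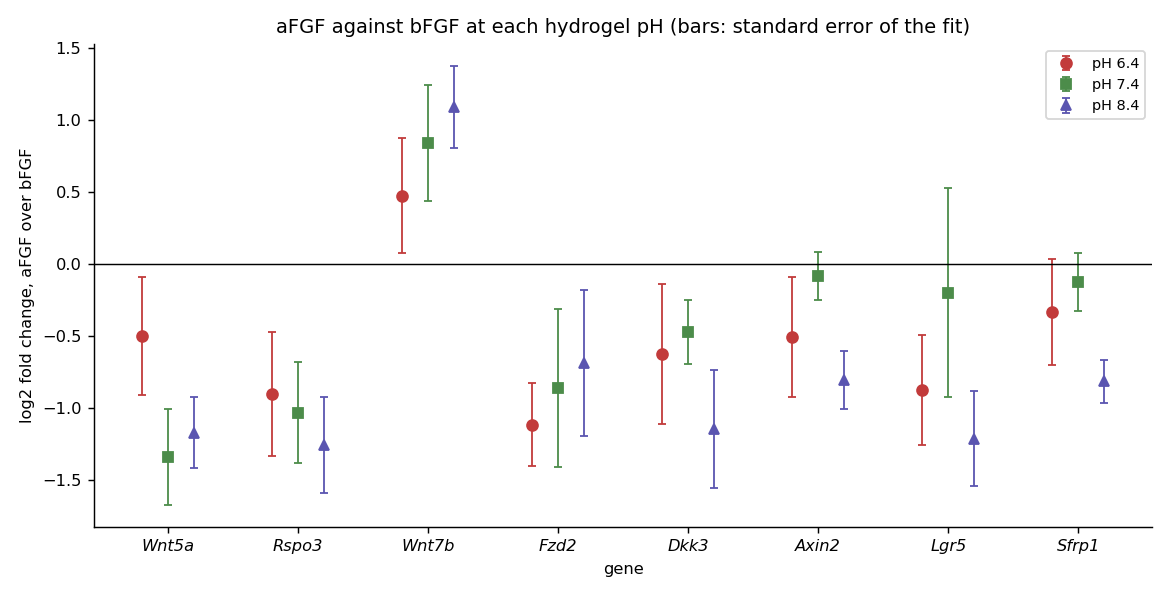
Log2 fold change of aFGF over bFGF with its standard error for 8 genes at pH 6.4 (circles), 7.4 (squares) and 8.4 (triangles), each from 3 libraries a group. Wnt7b is above 0 at each pH (0.47, 0.84 and 1.09) and the other 7 genes are below 0 at each pH, with Axin2 (-0.08), Sfrp1 and Lgr5 nearest to 0 at pH 7.4.

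The pH of the hydrogel was compared within each growth factor, with pH 7.4 as the reference. In these comparisons 0 genes of the set were called by edgeR, DESeq2 or limma, and 0.0% of all genes were called by edgeR. DESeq2 called 0.0726% to 0.632% of all genes. With aFGF, 1 of 39 genes at pH 6.4 and 1 of 39 at pH 8.4 had an unadjusted p under 0.05, both with a lower estimate. The background was 4.99% of all genes (2.14% higher and 2.86% lower) and 3.01% (0.788% higher and 2.22% lower). These genes were Fzd7, at 27.8, 19.4 and 20.8 CPM in 6.4/aFGF against 37.2, 31.4 and 47.5 CPM in 7.4/aFGF (log2 fold change -0.76, SE 0.204), and Lef1 (-2.39), whose estimate was -0.94 without the 7.4/aFGF library at 5.35 CPM. With bFGF, 2 of 39 genes at pH 6.4 did so, Wnt10b (1.12, SE 0.309) and Wnt11 (0.76, SE 0.295), against 8.89% of all genes (4.89% higher and 4.01% lower). At pH 8.4, 1 of 40 did, with a higher estimate, against 5.72% (2.74% higher and 2.99% lower).

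That gene was Axin2, at 11.1, 9.33 and 10.4 CPM in 8.4/bFGF against 6.34, 6.79 and 7.06 CPM in 7.4/bFGF, with a log2 fold change of 0.62 (SE 0.139, edgeR adjusted p = 0.861). The groups did not overlap, which held for 3 of 40 genes of the set and 11.7% of all genes, and the 3 libraries of 8.4/bFGF exceeded the lowest control. Whether a pH effect differed between the growth factors was tested as an interaction, and 0 genes of the set were called by edgeR, DESeq2 or limma. Of all genes, edgeR called 0.0% in both interactions. DESeq2 called 0.153% for pH 6.4 and 0.0218% for pH 8.4. For pH 6.4 against 7.4, 2 of 39 genes (Fzd7 and Fzd4) had an unadjusted p under 0.05, against 6.09% of all genes, and for pH 8.4 against 7.4 2 of 40 (Axin2 and Sfrp1), against 4.73%. For Axin2 the pH effect with aFGF was lower than that with bFGF by a log2 difference of -0.74 (SE 0.246, edgeR adjusted p = 0.993).

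Against the control wounds, the clearest estimates were those of Lgr5 and Axin2, which were 3.6 and 2.08 times lower with hydrogels, but edgeR called 0 of the 41 genes. The background was 0.00632% of all genes, that is 1 gene of 15811. Lower estimates at an unadjusted p below 0.05 came from 8 genes, or 19.5%, and higher ones from none, against 16.7% of all genes (10.4% lower). Of the 41 estimates 35 were below 0, and their median was -0.25 on the log2 scale against -0.02 for all genes. DESeq2 called Axin2, Lgr5 and Wnt7b, with a background of 0.908%, and limma called 0. None of the 41 genes separated the controls from all hydrogel libraries, which 0.582% of all genes did.

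Lgr5, the R-spondin receptor that marks hair follicle stem cells, was 8.37, 3.62 and 12.8 CPM in the controls and 0.658 to 4.58 CPM in the 18 hydrogel libraries (median 1.93), of which 13 were below the lowest control. The log2 fold change was -1.85 (SE 0.369, edgeR adjusted p = 0.0612). Axin2 was 14.9, 9.00 and 17.6 CPM in the controls and 3.77 to 11.2 CPM in the hydrogels (median 6.53), and 14 of the 18 libraries were below the lowest control. Its log2 fold change was -1.06 (SE 0.218, edgeR adjusted p = 0.0646). For both genes the overlap came from control replicate 2. Without that library edgeR called 5 genes of the set (Axin2, Lgr5, Wnt10b, Wnt5b and Wnt7b), all lower with hydrogels. The share of all genes called was then 7.4%. Without 6.4/bFGF replicate 1 edgeR called Axin2, and without control replicate 1 or 3 it called 0 of all genes. When any 1 library was left out, the log2 fold change of Lgr5 ranged from -2.21 to -1.37 and that of Axin2 from -1.29 to -0.83. Their adjusted p-values in these edgeR fits reached 0.574.

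Hair follicle and adipocyte markers were compared between the same groups, and none was called. The 20 hair follicle genes averaged -0.44 to 0.29 log2 CPM in the controls and -1.39 to -0.62 log2 CPM in the hydrogel libraries, with no overlap, and 5 of the 13 tested had an unadjusted p under 0.05, all lower, against 10.4% of all genes. These levels were low, only 13 of the 20 genes passed the filter on low counts, and the nearest libraries lay close (-0.44 and -0.62 log2 CPM). The 16 adipocyte genes had 16 lower estimates, 11 of them at an unadjusted p under 0.05, and ranged from 5.96 to 9.14 log2 CPM in the controls and from 5.12 to 8.58 log2 CPM with hydrogels. Control replicate 2 was the lowest control in both lists. The part of these tissues in the values of Lgr5 and Axin2 was not tested.

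**Figure D5:**
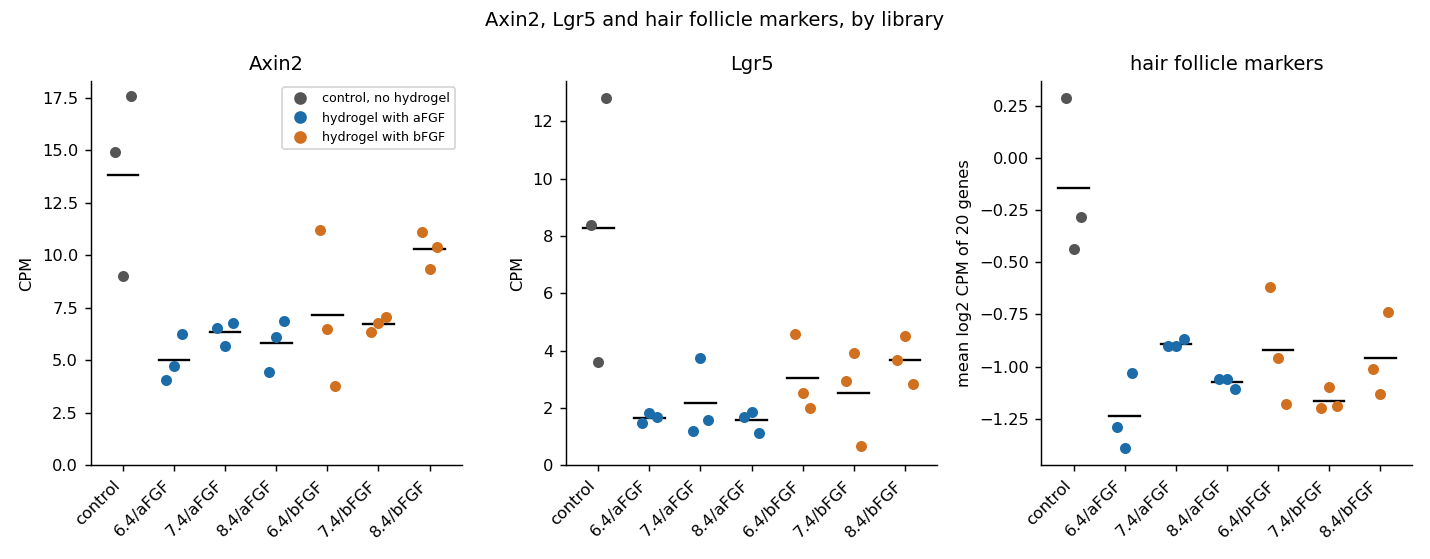
CPM of Axin2 and Lgr5 and the mean log2 CPM of 20 hair follicle genes in each library (points, 3 in each of the 7 groups), with group means (bars). Control replicate 2, at 9.00 CPM for Axin2 and 3.62 CPM for Lgr5, is the control that overlaps the hydrogels, and the 8.4/bFGF libraries hold the highest group mean of Axin2 among the hydrogels (10.3 CPM).

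The remaining genes with an unadjusted p under 0.05 against the control were the ligands Wnt7b (log2 fold change -0.94), Wnt5b (-0.88), Wnt10b (-1.25) and Wnt1 (-2.08) and the receptors Fzd10 (-0.90) and Fzd7 (-0.43), with edgeR adjusted p-values of 0.137 to 0.251. Wnt7b was 5.65 ± 1.34 CPM in the controls (SD, n = 3) and 3.11 ± 1.27 CPM in the hydrogels (SD, n = 18), and the bFGF libraries held its lowest values. Wnt10b, a canonical ligand known from hair follicles, was 1.03, 1.5 and 5.29 CPM in the controls and 0.493 to 2.14 CPM in the hydrogels, and without control replicate 3 its log2 fold change was -0.18. Wnt1 had at most 12 counts in a library. No antagonist had an unadjusted p under 0.05. Sfrp2 was 224 ± 131 CPM in the controls and 192 ± 121 CPM in the hydrogels, and its log2 fold change of -0.31 had an SE of 0.507.

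Of the 58 other pathway genes tested against the control, edgeR called 0, and 3 higher and 8 lower estimates had an unadjusted p under 0.05 (6.29% and 10.4% of all genes). The smallest p-values belonged to Apcdd1 (log2 fold change -1.14, SE 0.196, adjusted p = 0.0584), a membrane inhibitor of Wnt signalling, Nkd1 (-1.16, adjusted p = 0.117) and Lgr6 (-1.15, adjusted p = 0.118), a relative of Lgr5.

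In the test for any difference among the 7 groups, edgeR called 0 of the 41 genes, with a background of 0.114%. At an unadjusted p below 0.05 stood 8 of 41 genes (19.5%, against 19.3% of all genes), led by Axin2, Lgr5, Wnt7b, Wnt5a, Rspo3 and Fzd7. The smallest adjusted p was 0.11. DESeq2 called 6 genes (Axin2, Dkk3, Lgr5, Rspo3, Wnt5a and Wnt7b), with a background of 11.0%, and limma 0. Without control replicate 2, edgeR called Axin2 and Lgr5 of the set, and 5.38% of all genes.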

How the data were processed

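RNA was extracted from the wounds with TRIzol and libraries were made with a stranded mRNA kit, per the labels. For each library the authors deposited a table with unnormalized counts by gene and FPKM values. Dividing each count by the library total and by 1 length for each gene gave the FPKM values (checked on 13699 genes). The submitters' processing notes name build GRCm39, and the aligner and counting tool are not given in the sources used here. Gene names were looked up in a RefSeq table of another mouse build (GRCm38.p6), which held all 43 genes. No sequences or coordinates were used here.

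Counts were tested in R 4.3.3 with edgeR 4.0.16 (TMM, default filter by group, quasi-likelihood test, Benjamini-Hochberg adjustment over all genes tested). Calls needed an adjusted p-value below 0.05 and, except for any difference among groups, an absolute log2 fold change above 0.58. Comparisons with all hydrogels or all pH values used the 21 libraries with a mean per group, and the others used the libraries compared. Within-gene levels are CPM after TMM. Marker lists are given as mean log2 CPM with a prior count of 2. The scripts were tested on simulated data. The genes and lists were chosen with earlier results of these data known. Named are, by role, the 6 genes with the highest mean FPKM, genes that failed the filter, up to 6 genes per comparison with the smallest unadjusted p under 0.05, genes called under any alternative, and up to 3 other pathway genes per comparison beside those called. A few further genes were named after their values were seen.

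Alternatives were DESeq2 1.42.0 (default, or with Cook's cutoff and independent filtering switched off) and limma 3.58.1 on log2 FPKM with a pseudocount of 1 or 0.1 (genes averaging 1 FPKM or more, or all genes). In edgeR they were RLE factors, no count filter, a minimum of 10 counts per library, robust dispersions, the adjusted p alone, all 21 libraries in every fit, replicate numbers as a block, and omission of single libraries. Leaving out the 3 libraries with genes of other tissues was added after seeing the data. Counting intervals were not given, since libraries of a group differed beyond counting noise.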

Additional observations from a re-analysis of the deposited data

How the results depend on the processing

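Alternatives were run on the log2 fold change of 34 pairs of a gene and a comparison, and none of these reversed. The pairs were chosen for an unadjusted p under 0.05 in the main fits and refitted on the same data. A change of sign was thus unlikely beforehand. DESeq2 made more calls than edgeR in both of its settings. It called 6 genes of the set in both for any difference among groups (edgeR 0), 3 with default settings and 2 without the Cook's cutoff and filtering for hydrogels against control (edgeR 0), and 7 in both for aFGF against bFGF over all pH (edgeR 3). Between the growth factors it called 1 at pH 6.4, 1 at pH 7.4, and 7 with default settings and 6 without at pH 8.4 (edgeR 0 each). Leaving out 1 library gave 0 to 2 calls for any difference, 0 to 5 for hydrogels against control, 2 to 5 for aFGF against bFGF over all pH, 0 to 1 at pH 8.4 (Fzd2, without 8.4/aFGF replicate 3) and 0 in the other comparisons. The 5 calls between the growth factors came without 6.4/aFGF replicate 2 (with Dkk3 and Wnt7a added) or 8.4/bFGF replicate 1 (with Dkk3 and Wnt2b added), and Wnt16 was called without 7.4/aFGF replicate 2. Over all genes, the calls for aFGF against bFGF were 506 in edgeR, 773 in DESeq2 and 191 to 338 in limma. The calls for hydrogels against control were 1 in edgeR, 170 in DESeq2 and 1189 in edgeR without control replicate 2. They were 0 in edgeR without control replicate 1 or 3. Without the 3 libraries with genes of other tissues, edgeR called 3 genes of the set for aFGF against bFGF over all pH (Fzd2, Rspo3 and Wnt5a), 0 for hydrogels against control and 0 in the other comparisons that held one of them. Limma without a filter kept Wnt7b at an adjusted p of 0.0399 but with a log2 fold change of 0.30. Libraries with the same replicate number did not deviate together (median correlation 0.0135 over 63 pairs), so the numbers were not taken to pair samples. With the replicate block, 3 genes of the set were called for aFGF against bFGF over all pH and 0 for hydrogels against control, as without it. Genes with few reads (Wnt1, Wnt7a, Notum, Lef1) had few counts behind their estimates at this depth.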

Other observations

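Markers of further cell types are given as values. All 12 macrophage genes had a higher estimate with aFGF than with bFGF, 3 of them at an unadjusted p under 0.05 (25.0%, against 28.0% of all genes), and Fcgr1, an Fc receptor of macrophages, was called by edgeR with a log2 fold change of 0.66. Of the 12 neutrophil genes, 11 had a higher estimate with hydrogels than in the controls, where their mean ranged from 3.31 to 6.92 log2 CPM against 5.52 to 7.92 log2 CPM with hydrogels, but none was called and 1 had an unadjusted p under 0.05 (8.33%, against 16.7% of all genes). Skeletal muscle genes averaged 3.47 to 9.62 log2 CPM over the 21 libraries, and none of the 16 had an unadjusted p under 0.05 in either comparison. Of the 12 endothelial genes, 1 had a higher estimate with hydrogels and 1 a lower estimate with aFGF at an unadjusted p under 0.05, and none was called.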
